A study of Homo sapiens with 12 samples.

Results

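LOX, TGFBR2, FOXO1, PHLDA1 and DKK1 are 5 genes described as repressed by EWS::FLI1, the fusion of EWSR1 with the ETS transcription factor gene FLI1 that drives Ewing sarcoma. They were taken by name from a table of 26334 genes, and all 5 were present and passed the filter on low counts. The table held 12 RNA-seq libraries from a single Ewing sarcoma model, shA673-1c, made from the line A673 to carry a doxycycline-switched hairpin against the fusion. Every library came from cells kept in 1 µg/ml doxycycline, for 4 days by the design text, together with blasticidin and zeocin, and the groups were 0, 1, 2 and 4 h of 5 µM actinomycin D, with 3 biological replicates each. Actinomycin D blocks transcription, so the course asks how fast each mRNA is lost relative to the other mRNAs of the same library.

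EWS::FLI1 activates some genes, often through repeats of the ETS core GGAA, and lowers others, many of which belong to the mesenchymal programme of the cell of origin. Knocking the fusion down is known to release these repressed genes, but cells grown without doxycycline are not analysed here, and the size of neither the repression nor its release was measured. The level at 0 h is therefore the level after knockdown, and any later value is the balance of what remains once new synthesis stops. In bulk RNA, fewer cells with an mRNA and less of it per cell cannot be told apart.

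The 5 mRNAs differ in gene length and in their 3′ untranslated regions, where short-lived mRNAs often carry AU-rich elements. In GENCODE release 29, on build GRCh38, LOX lies on chr5:122063195-122078285 (minus strand, 7 exons), TGFBR2 on chr3:30606502-30694134 (plus, 7 exons), FOXO1 on chr13:40555667-40666597 (minus, 3 exons), PHLDA1 on chr12:76025447-76031776 (minus, 2 exons) and DKK1 on chr10:52314296-52317657 (plus, 4 exons). The counts were made on hg19, so these positions serve only to place the genes and were not used with the counts. The 30 bases of each 3′ untranslated region with the most copies of the pentamer ATTTA are shown, with the pentamers in capitals, in the DNA letters of the transcript. Among equals, the window with most copies of the longer form TTATTTATT was taken, then that with its pentamers most central, then the first. The windows of LOX and FOXO1 hold 1 pentamer each and are the first of several equals.
LOX: taacttcagtaggATTTAtgtattttgaaa
TGFBR2: tcctggacttttcATTTAagctccaagccc
FOXO1: aatttgtacaaacATTTAaatggttctaat
PHLDA1: gtattttgATTTAtgattATTTAttagttt
DKK1: tgaaataaaATTTAacATTTAatatcatga

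These windows lie at chr5:122066648-122066677, chr3:30692286-30692315, chr13:40558318-40558347, chr12:76029792-76029821 and chr10:52317355-52317384. The whole 3′ untranslated regions held 12 pentamers in 3548 bases for LOX, 1 in 2535 for TGFBR2, 8 in 3382 for FOXO1, 14 in 4672 for PHLDA1 and 3 in 850 for DKK1, read on the transcript strand. Per kilobase this was 3.38, 0.394, 2.37, 3 and 3.53, against a median of 1.71 over 11428 tested genes with a 3′ untranslated region of at least 50 bases. The longer form TTATTTATT, which contains the pentamer, occurred once, in PHLDA1, and in 8.98% of those genes. A pentamer occurred in 72.1% of them, so its presence does not set these genes apart. RefSeq promoters of the same build were read from 250 bases before to 50 after a start, on both strands. GGAA occurred 5 times in the first listed promoter of LOX, 3 times for TGFBR2, 5 times for PHLDA1 and once each for FOXO1 and DKK1. The other listed promoters of LOX and TGFBR2 held 4 each. Over 35116 promoters the median was 3, and 95.5% had at least one. A pair of GGAA in a row was in 3.67% of promoters and in no listed promoter of the 5 genes.

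Library totals ran from 9381855 to 10929000 counts. FLI1 stood at 19.8, 19.9 and 21.7 CPM (reads scaled to the TMM-adjusted library total, a scaling that takes most mRNAs to keep their share) at 0 h in replicates 1, 2 and 3, at 19.04, 14.8 and 10.4 CPM at 1 h, at 13.4, 10.9 and 9.08 CPM at 2 h and at 8.16, 7.01 and 7.11 CPM at 4 h. EWSR1, the other parent gene of the fusion, was at 236 ± 28.9 CPM at 0 h and 296 ± 29.7 CPM at 4 h (SD, n = 3). Of 8 markers of Ewing sarcoma, 7 were counted in every library and passed the filter, and CD99 was listed at 0 in all 12. The highest level in any library was 671 CPM for CCND1, 21.68 for FLI1, 21.65 for STEAP1 and 12.85 for LIPI. It was 10.04 CPM for PRKCB, 4.758 for NR0B1 and 2.546 for NKX2-2. Of 13 markers of blood, epithelium, endothelium and liver, HBB reached 26.1 CPM, PECAM1 4.25 CPM and VWF 1.41 CPM, and the other 10 stayed at or under 0.870 CPM. The summed level of the 4 blood markers, nearly all of it HBB, was 18.2 to 26.4 CPM at 0 h and 8.80 to 15.6 CPM at 4 h, while PTPRC stayed at or under 0.377 CPM and CD3E was at 0. The part of HBB's source in the results on the 5 genes was not tested.

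The levels at 0 h spanned 3 orders of abundance. Per kilobase of the GENCODE transcript, LOX stood at 749 ± 37.8 CPM, TGFBR2 at 126 ± 5.63, PHLDA1 at 62.4 ± 2.30, FOXO1 at 1.605 ± 0.486 and DKK1 at 0.551 ± 0.0733 (SD, n = 3). Each neighbour in this order differed by more than its spread. At 4 h the values per kilobase were 1000 ± 46.6 for LOX, 133 ± 5.33 for TGFBR2, 9.68 ± 0.893 for PHLDA1, 0.232 ± 0.0264 for FOXO1 and 0.0801 ± 0.0334 for DKK1, in the same order.

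After 4 h of actinomycin D, under TMM scaling, the 5 genes separated into mRNAs that were largely lost and mRNAs that held their share. FOXO1, PHLDA1 and DKK1 fell to means of 15.5%, 15.6% and 15.1% of their 0 h level, LOX rose relative to the library, and no change was called for TGFBR2. In edgeR's quasi-likelihood test with Benjamini-Hochberg adjustment over 12775 genes, 3 of the 5 were lower, where 24.6% of all tested genes were lower, and 1 was higher, where 23.3% were higher. The median log2 fold change over all tested genes was 0.05, and the 5th and 95th percentiles were -1.79 and 0.59. One of the 3 lower genes, DKK1, reached the count minimum of the filter in only 4 of 12 libraries, of which 2 were at 0 h and none at 4 h.

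**Figure D1:**
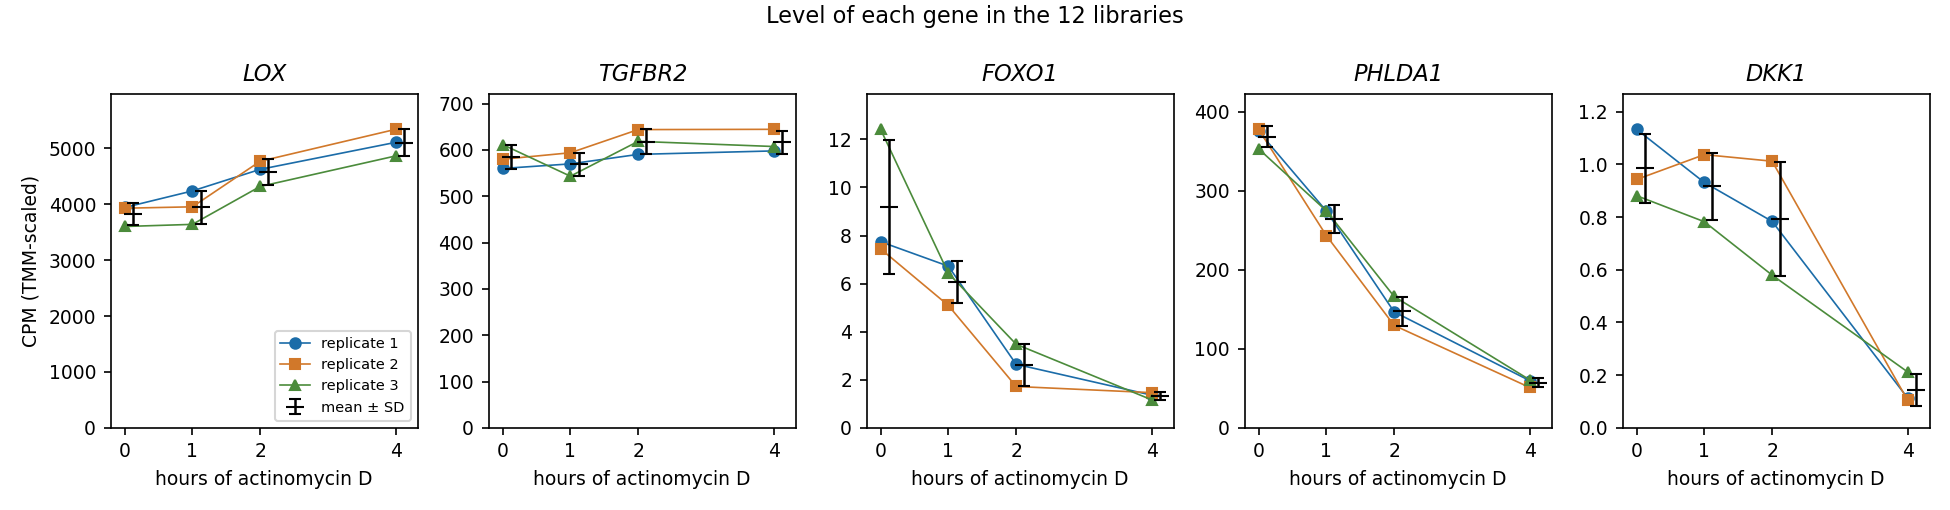
Level of each gene in CPM (y axis, from 0) against hours of actinomycin D (x axis), with a coloured line and marker per replicate and black bars for the mean ± SD of 3 replicates. LOX climbs from 3823 to 5103 CPM, TGFBR2 ends at 616 CPM, and FOXO1, PHLDA1 and DKK1 end at 1.33, 57.2 and 0.143 CPM.

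LOX encodes lysyl oxidase, a secreted copper enzyme that crosslinks collagen and elastin in the matrix. Its mRNA was at 3941, 3928 and 3601 CPM at 0 h in replicates 1, 2 and 3, at 4237, 3953 and 3639 CPM at 1 h, at 4623, 4768 and 4317 CPM at 2 h and at 5106, 5339 and 4863 CPM at 4 h. Libraries of 0 h and 1 h overlapped, those of 2 h and 4 h lay above all of 0 h, and replicate 3 was the lowest at each time. LOX alone took 0.396% ± 0.0189 of a library's counts before the drug and 0.476% ± 0.0180 after 4 h (SD, n = 3).

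At 4 h LOX had risen 1.33-fold (log2 fold change 0.42, SE 0.07, edgeR adjusted p = 0.0004777), in 3 of 3 replicates at 0.37, 0.44 and 0.43. This rise depended on the scaling. When libraries were scaled to the summed counts of ribosomal protein genes, which moved the median log2 fold change of all genes at 4 h from 0.05 to -0.32, the change of LOX was 0.04 (adjusted p = 0.721). The rise is thus one against the average mRNA, and the value of LOX at 4 h was above 0 under each scaling tried. At 1 h its log2 fold change was 0.04 (SE 0.07, adjusted p = 1).

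At 2 h LOX was 1.195-fold higher (log2 fold change 0.26, SE 0.07, edgeR adjusted p = 0.03132). That call ended under total-count scaling (adjusted p = 0.0549), under ribosomal scaling (adjusted p = 0.431) and without any one of 0 h replicates 1, 2 and 3, 1 h replicate 2, or 2 h replicates 1 and 2 (adjusted p from 0.0553 to 0.147). Between 1 h and 2 h its log2 fold change was 0.21 (adjusted p = 0.1048) and between 2 h and 4 h 0.16 (adjusted p = 0.1391). Once the replicate number entered the model as a covariate (the replicate block), both steps passed (adjusted p = 3.37e-06 and 6.85e-05). The block also raised the calls over all tested genes. Genes called higher went from 187 to 1664 between 1 h and 2 h. Between 2 h and 4 h they went from 1302 to 2820.

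TGFBR2 encodes the receptor kinase that binds TGF-beta and recruits TGFBR1, and its loss is a known way for tumour cells to escape growth arrest. It stood at 560, 580 and 611 CPM at 0 h in replicates 1, 2 and 3, at 570, 594 and 543 CPM at 1 h, at 590, 644 and 618 CPM at 2 h and at 598, 644 and 607 CPM at 4 h. The libraries of 0 h overlapped those of every other time, all of 4 h lay above all of 1 h, and replicate 3 went from the highest library at 0 h to the lowest at 1 h. In replicates 1, 2 and 3 the level at 4 h was 107%, 111% and 99.3% of that at 0 h.

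The log2 fold change of TGFBR2 at 4 h was 0.08 (SE 0.06, 95% interval -0.05 to 0.21, edgeR adjusted p = 0.3037). Its direction depended on the scaling: it turned to -0.07 under total-count scaling (adjusted p = 0.341) and to -0.29 under ribosomal scaling, where it was called lower (adjusted p = 0.000675). Between 1 h and 2 h its log2 fold change was 0.12 (adjusted p = 0.2966), which passed with the replicate block (adjusted p = 0.0175). The block took the number of all tested genes called higher in this step from 187 to 1664.

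FOXO1 encodes a forkhead transcription factor that AKT signalling keeps out of the nucleus and that promotes cell cycle arrest and cell death genes. Its mRNA was scarce, with 82, 79 and 141 counts at 0 h in replicates 1, 2 and 3, 65, 54 and 74 at 1 h, 27, 17 and 36 at 2 h and 12, 14 and 11 at 4 h. In CPM these were 7.74, 7.45 and 12.4 at 0 h, 6.73, 5.09 and 6.43 at 1 h, 2.65, 1.72 and 3.48 at 2 h and 1.36, 1.46 and 1.17 at 4 h. Replicate 3 stood above the others at 0 h, every library of 1 h lay under every library of 0 h, and the libraries of 4 h lay under those of 2 h in turn.

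FOXO1 was 6.88-fold lower at 4 h (log2 fold change -2.78, SE 0.30, edgeR adjusted p = 7.241e-06), lower in 3 of 3 replicates at -2.35, -2.20 and -3.21. It was already 3.51-fold lower at 2 h (log2 fold change -1.81, SE 0.26, adjusted p = 0.0003517). Pooled over replicates, 302 counts at 0 h became 80 at 2 h and 37 at 4 h, which is 28.3% (95% exact interval 21.9% to 36.3%) and 14.3% (9.90% to 20.2%) of the 0 h level, where the intervals cover counting error only.

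PHLDA1 encodes a pleckstrin homology-like protein that growth factors and stress induce and that restrains receptor signalling. It stood at 375, 378 and 353 CPM at 0 h in replicates 1, 2 and 3, at 275, 243 and 275 CPM at 1 h, at 147, 130 and 166 CPM at 2 h and at 59.7, 51.1 and 60.8 CPM at 4 h. No libraries of different times overlapped, and replicate 2 was the lowest at 1, 2 and 4 h. Its replicates were close, with a coefficient of variation of 3.68% at 0 h and 9.23% at 4 h.

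At 1 h the log2 fold change of PHLDA1 was -0.48 (SE 0.09, edgeR adjusted p = 0.02142), and it was the only one of the 5 called at that time, where 1.16% of all tested genes were lower. That call ended under ribosomal scaling (adjusted p = 0.0673) and without any one of 0 h replicates 1 and 2 or 1 h replicates 1, 2 and 3 (adjusted p from 0.0524 to 0.126). Among other alternatives it held with the replicate block (adjusted p = 7.33e-08), in DESeq2 (adjusted p = 0.000447) and without replicate 3 (adjusted p = 0.00718). The log2 fold change ran from -0.54 to -0.42 over the alternatives. Under the replicate block FOXO1 was called as well, at a log2 fold change of -0.60 (adjusted p = 0.00963 against 0.3698 without the block). The block also raised the number of all tested genes called lower at 1 h, from 148 to 802. At 2 h PHLDA1 was 2.498-fold lower (adjusted p = 1.431e-06). It and FOXO1 were the 2 of 5 called lower at that time, where 11.7% of all tested genes were lower, and LOX the 1 called higher, where 3.39% were higher.

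PHLDA1 fell in each later step as well. Its log2 fold change was -0.84 between 1 h and 2 h (adjusted p = 0.0002101) and -1.37 between 2 h and 4 h (adjusted p = 1.9e-06), and at 4 h it stood at 15.6% ± 1.86 of its 0 h level (SD, n = 3). The change of rate, meaning the late log2 fold change (2 to 4 h) less the early one (0 to 2 h), was -0.05 (SE 0.16, 95% interval -0.40 to 0.30, edgeR adjusted p = 0.9532).

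DKK1 encodes a secreted inhibitor of Wnt signalling that binds the coreceptors LRP5 and LRP6. It was near the limit of what these libraries measure, with 12, 10 and 10 counts at 0 h in replicates 1, 2 and 3, 9, 11 and 9 at 1 h, 8, 10 and 6 at 2 h and 1, 1 and 2 at 4 h. Groups of 0, 1 and 2 h overlapped, and every library of 4 h lay below all the others. Pooled over replicates, 32 counts at 0 h became 29 at 1 h, 24 at 2 h and 4 at 4 h.

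By this pooled measure DKK1 at 4 h was 14.6% of that at 0 h (95% exact interval 3.76% to 41.2%, counting error only), a 6.84-fold fall with an interval of 2.42 to 26.6. At 2 h it was 80.2% (45.2% to 140%), so no change was detectable at this depth. The fit gave a log2 fold change at 4 h of -2.67 (edgeR adjusted p = 0.0003167, SE 0.45), which depends on the prior count at such low levels. That SE understates the error. The fitted 95% interval, -3.64 to -1.71 in log2, is narrower than the exact interval above, which covers counting error only. Between 2 h and 4 h the log2 fold change was -2.36 (SE 0.47, adjusted p = 0.002892), on 24 and 4 pooled counts, so its SE is to be read with the same limit.

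**Figure D2:**
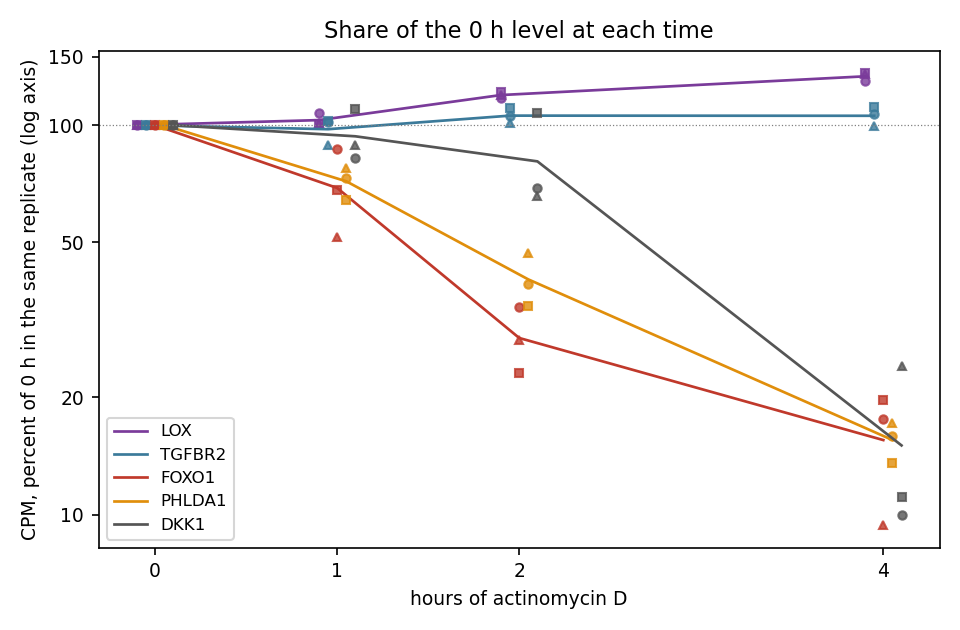
CPM as a percent of the 0 h library of the same replicate (y axis, log scale) against hours of actinomycin D (x axis), with a marker per replicate (circle, square and triangle for 1, 2 and 3) and a line through the mean of each gene. The means of FOXO1, PHLDA1 and DKK1 meet near 15% at 4 h, while that of DKK1 is still at 80.8% at 2 h. DKK1 at 4 h rests on 1, 1 and 2 counts.

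The 3 lost mRNAs differed in mean level at 2 h and were close to each other at 4 h. FOXO1, PHLDA1 and DKK1 stood at 28.4% ± 5.54, 40.2% ± 6.45 and 80.8% ± 23.1 of their 0 h level at 2 h and at 15.5% ± 5.43, 15.6% ± 1.86 and 15.1% ± 7.83 at 4 h (SD, n = 3). PHLDA1 and FOXO1 were the 2 members lower between 1 h and 2 h, where 5.72% of all tested genes were lower. PHLDA1 and DKK1 were the 2 members lower between 2 h and 4 h, where 14.2% of all tested genes were lower and 10.2% higher. Tested genes called lower in this step numbered 1817, and 2851 with the replicate block. FOXO1 missed the threshold there (log2 fold change -0.97, SE 0.34, adjusted p = 0.05533), and it passed with the replicate block (adjusted p = 0.00775), in DESeq2 (adjusted p = 0.0367), under the 3 other scalings tried (adjusted p from 0.0172 to 0.0481) and without 0 h replicate 3 or 2 h replicate 2 (adjusted p = 0.0261 and 0.0277). Its call from 1 h to 2 h (log2 fold change -1.21, adjusted p = 0.01752) ended when 1 h replicate 1 or 2 h replicate 2 was left out (adjusted p = 0.0548 and 0.0863).

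A difference between the early and the late course was not called for any of the 5. Under edgeR the change of rate was 0.84 for FOXO1 (SE 0.53, adjusted p = 0.5812) and -2.05 for DKK1 (SE 0.67, adjusted p = 0.2986). A negative value means that the late log2 fold change was below the early one. So 0 of 5 passed, where 0.227% of all tested genes were called with a negative and 0.384% with a positive change of rate. At an unadjusted p under 0.05 there was 1, DKK1. DESeq2 called 0 of the 4 members for which it gave an adjusted p, and DKK1 was the one without. Over all tested genes it called 68 lower and 77 higher.

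Over the whole course, a single slope was fitted to how fast each mRNA left the library. The slope was -0.74 log2 per hour for FOXO1 (SE 0.08, edgeR adjusted p = 7.55e-07), -0.69 for PHLDA1 (SE 0.03, adjusted p = 2.682e-10) and -0.52 for DKK1 (SE 0.12, adjusted p = 0.001745). These are apparent half-lives of 1.35 h (95% interval 1.11 to 1.71 h), 1.45 h (1.34 to 1.59 h) and 1.93 h (1.3 to 3.73 h), relative to the other mRNAs. Under ribosomal scaling they were 1.2, 1.27 and 1.65 h. The value for DKK1 is an average over the course, and a constant rate was not shown for DKK1. Its interval rests on the same kind of SE that understated the error at 4 h, so it may be too narrow. Its mean level was 93.7%, 80.8% and 15.1% of that at 0 h at 1, 2 and 4 h, on 29, 24 and 4 pooled counts. By slope 3 of the 5 were lower, where 25.5% of all tested genes were lower, and LOX was higher, at 0.11 log2 per hour (SE 0.02, adjusted p = 0.0001293), where 25.3% were higher. Under ribosomal scaling the slope of LOX was 0.010 (adjusted p = 0.725), and TGFBR2 was called lower at -0.074 (adjusted p = 0.000684).

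The 5 genes were also compared with each other within each library, which needs no scaling between libraries. For each of the 10 pairs the log2 ratio of counts was regressed on time, with an exact two-sided permutation test over the 369600 assignments of the time labels and Benjamini-Hochberg adjustment over the 10 pairs. In 7 of 10 pairs the slopes differed. LOX and PHLDA1 diverged by 0.80 log2 per hour (0.77 to 0.85 over replicates, exact permutation p = 2.71e-06, the smallest possible, adjusted p = 6.76e-06), and TGFBR2 and FOXO1 by 0.73 (0.65 to 0.85, exact permutation adjusted p = 6.76e-06).

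LOX also gained on TGFBR2, by 0.09 log2 per hour (0.07 to 0.10 over replicates, exact permutation adjusted p = 0.00046). This difference does not depend on how libraries are scaled. Whether TGFBR2 was itself retained does: its slope was 0.026 log2 per hour in the main fit and -0.074 under ribosomal scaling. Among the 3 lost mRNAs no pair was called. FOXO1 and PHLDA1 differed by -0.01 log2 per hour (-0.18 to 0.13 over replicates, exact permutation adjusted p = 0.881), FOXO1 and DKK1 by -0.08 (-0.37 to 0.09, exact permutation adjusted p = 0.724), and PHLDA1 and DKK1 by -0.07 (-0.19 to 0.03, exact permutation adjusted p = 0.664). Those ranges leave room for half-lives that differ. The pairs with DKK1 depended on the pseudocount: with 5 in place of 0.5, FOXO1 minus DKK1 was -0.324 (exact permutation adjusted p = 0.0155), PHLDA1 minus DKK1 was -0.407 (exact permutation adjusted p = 2.25e-05), and FOXO1 minus PHLDA1 turned to 0.084 without being called.

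**Figure D3:**
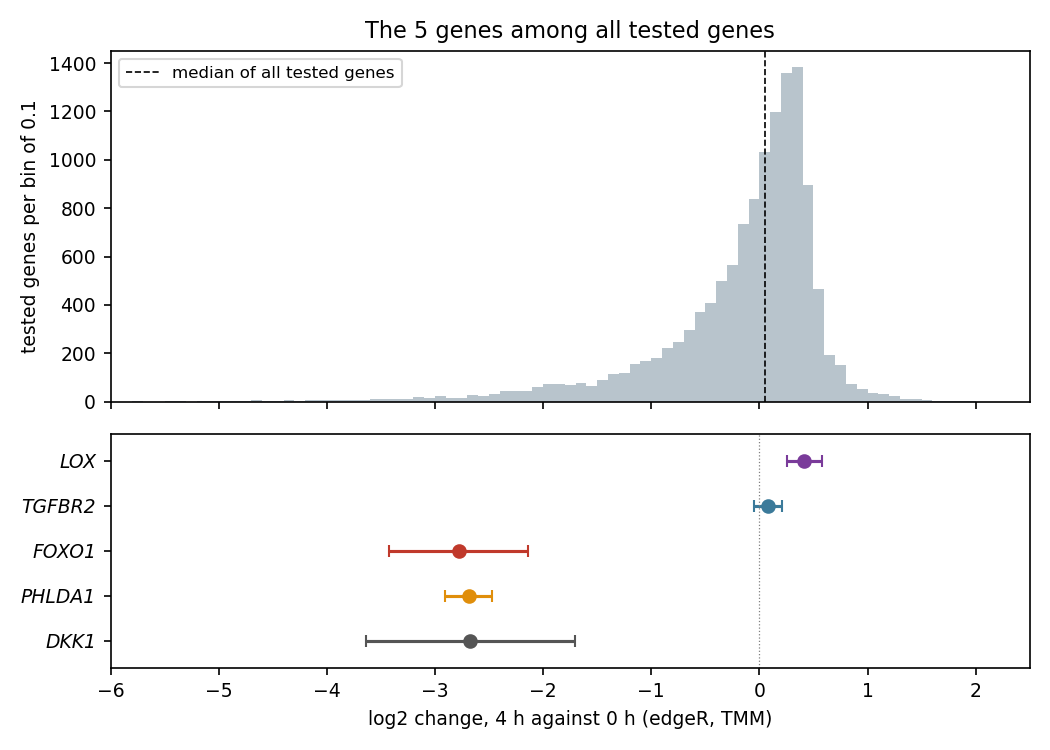
Top, number of tested genes (y axis) per bin of 0.1 in the log2 fold change at 4 h against 0 h (x axis), with a dashed line at their median of 0.05 and 5 genes beyond the axis left out. Bottom, the 5 genes with 95% intervals: LOX lies right of 0, the interval of TGFBR2 spans 0, and FOXO1, PHLDA1 and DKK1 lie in the left tail between -2.78 and -2.67. The interval drawn for DKK1 is narrower than the exact interval of its counts.

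Among all tested genes the change at 4 h was larger in the negative direction for 1.46% of genes than for FOXO1, for 1.61% than for PHLDA1 and for 1.64% than for DKK1. LOX stood at percentile 86.0 and TGFBR2 at percentile 51.9. The late change of DKK1, from 2 h to 4 h, stood at percentile 0.133 of all genes, on counts that fell from 24 to 4 in all.

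Genes whose levels followed each member most closely over the 12 libraries were named by Pearson's correlation of log2 CPM among about 10260 genes with at least 5 CPM. LOX was followed by TMBIM6 (r = 0.986), RCN1 (r = 0.982) and NRD1 (r = 0.979), with log2 fold changes at 4 h of 0.39, 0.31 and 0.39 that were 0.01, -0.07 and 0.01 under ribosomal scaling. TGFBR2 was followed less closely, by MRPS36 (r = 0.915), SNX6 (r = 0.911) and ARMT1 (r = 0.902). FOXO1 was followed by JADE1 (r = 0.986), ACVR2A (r = 0.980) and ARID5B (r = 0.978), which fell, with log2 fold changes at 4 h of -1.59, -1.82 and -2.97. PHLDA1 was followed by PDP1, CCNT1 and ASXL1 (r = 0.995 each), which fell, at -2.37, -1.89 and -1.36. DKK1 was followed by EVI5 (r = 0.981), MBD2 (r = 0.977) and RAB36 (r = 0.977), which fell, at -0.945, -0.51 and -0.87. All points share the time course and the library, so these values describe a shape over time and not its size.

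The counts of related genes that follow are to be read against all tested genes at 4 h, of which 24.6% were lower and 23.3% higher, with a median log2 fold change of 0.05. These shares were 31% and 10.5% under total-count scaling, 45.8% and 1.2% under ribosomal scaling, and 30.8% and 34.8% with the replicate block.

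Among other genes described as repressed by the fusion, the share called lower was near that of all tested genes. Of 8 tested, SPRY1, an inhibitor of receptor tyrosine kinase signalling, and CYR61, a matricellular YAP target, fell (2 of 8), and the median log2 fold change was -0.07 (3 lower under total-count scaling, 4 under ribosomal scaling, 3 lower and 2 higher with the replicate block or without replicate 3). SPRY1 went from 16.2 ± 8.69 to 1.04 ± 0.479 CPM (log2 fold change -3.95, SE 0.61, edgeR adjusted p = 0.000188) and CYR61 from 410 ± 75.4 to 37.0 ± 5.48 CPM (log2 fold change -3.47, SE 0.16, adjusted p = 5.831e-09). CTGF, which encodes another matricellular YAP target, had a log2 fold change of -0.76 (adjusted p = 0.0616), which passed under total-count scaling (adjusted p = 0.0298), under ribosomal scaling (adjusted p = 0.00781) and with the replicate block (adjusted p = 2.96e-11). COL3A1, a fibrillar collagen gene, was at 2920 ± 797 CPM at 0 h and 3602 ± 919 CPM at 4 h (log2 fold change 0.30, adjusted p = 0.3151, and -0.07 under ribosomal scaling), a difference that passed with the replicate block (adjusted p = 2.37e-10).

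Among partners of LOX in matrix assembly, 3 of 4 lysyl oxidase relatives and 13 of 20 assembly genes rose, where 23.3% of all tested genes did. Of the 4 other lysyl oxidase genes 3 rose at 4 h, with a list median of 0.51 (2 under total-count scaling, 0 under ribosomal scaling at a median of 0.14, 4 with the replicate block). LOXL1 went from 160 ± 14.4 to 236 ± 14.6 CPM (log2 fold change 0.57, SE 0.09, edgeR adjusted p = 0.0001354) and LOXL2 from 1072 ± 109 to 1462 ± 62.7 CPM (log2 fold change 0.45, adjusted p = 0.0005701). LOXL4 was called at a log2 fold change of 0.60 (adjusted p = 0.02713) but missed the threshold without 0 h replicate 1 or 3 or 4 h replicate 1 or 2 (adjusted p from 0.0591 to 0.115). Of 20 genes of collagen and elastin assembly 13 rose, with a median of 0.41 (8 under total-count scaling, 1 under ribosomal scaling at a median of 0.04, 19 with the replicate block). BMP1, the protease that matures procollagen and lysyl oxidase, had a log2 fold change of 0.68 (SE 0.07, adjusted p = 9.98e-06), and the collagen-modifying enzyme genes PLOD3, P4HB and PLOD1 had 0.48, 0.45 and 0.43.

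Around TGFBR2, the TGF-beta pathway was mixed. Of 9 tested genes for ligands and their latency proteins 4 rose, at a median of 0.26, or -0.11 with ribosomal scaling (0 called under total-count scaling or ribosomal scaling). TGFB1, the main ligand, went from 137 ± 18.5 to 191 ± 24.7 CPM (log2 fold change 0.47, SE 0.12, edgeR adjusted p = 0.006241, and 0.10 under ribosomal scaling). LTBP3, LTBP2 and GDF11 had log2 fold changes of 0.68, 0.34 and 0.26, which were 0.31, -0.04 and -0.11 under ribosomal scaling. The LTBP3 call ended without 0 h replicate 1 or 4 h replicate 3 (adjusted p = 0.0512 and 0.0579), and that of GDF11 without 0 h replicate 1 or 2 or 4 h replicate 1 (adjusted p from 0.0639 to 0.0683).

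Of the 11 other receptors of the family 5 fell, where 24.6% of all tested genes did, and 1 rose, with a median of -0.24 (6 and 0 under total-count scaling, 8 and 0 under ribosomal scaling). The activin receptor genes ACVR2A and ACVR1B fell, with log2 fold changes of -1.82 and -1.03, as did BMPR1A, a receptor for bone morphogenetic proteins, at -0.48. The coreceptor gene ENG was called higher at a log2 fold change of 0.30, which ribosomal scaling turned to -0.08. Among 15 genes for SMAD proteins and their inhibitors 11 fell, with a median of -0.73 (14 under total-count scaling and under ribosomal scaling, 15 with the replicate block). BAMBI, a decoy receptor, fell 8.18-fold from 15.4 ± 1.32 CPM (log2 fold change -3.03, SE 0.19, edgeR adjusted p = 6.519e-08), the corepressor gene TGIF1 fell 5.85-fold, SMAD1 4.199-fold and the SMAD inhibitor gene SKIL 2.20-fold. Of 8 genes named as TGF-beta targets 5 rose, with a median of 0.45 (3 higher and 1 lower under total-count scaling, 0 and 1 under ribosomal scaling at a median of 0.08). They included FN1, ACTA2, TIMP1 and COL4A1, with log2 fold changes of 0.54, 0.48, 0.49 and 0.43.

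FOXO1's relatives and regulators were mixed. FOXO3, the paralogue with overlapping targets, fell 6.25-fold from 29.5 ± 2.08 to 4.72 ± 0.235 CPM (log2 fold change -2.64, SE 0.10, edgeR adjusted p = 1.881e-09). Of the 3 relatives tested 2 fell, with a median of -1.01 (1 without replicate 3). Of 17 regulators 10 fell and 3 rose, with a median of -0.28 (14 and 0 under ribosomal scaling). SGK1, a kinase that phosphorylates FOXO proteins, fell 19.5-fold from 180 ± 26.1 CPM (log2 fold change -4.29, SE 0.16, adjusted p = 1.534e-09), IRS1, an adaptor of the insulin receptor, 3.52-fold, and the acetyltransferase genes EP300 and CREBBP 3.16-fold and 3.04-fold. Of 13 tested FOXO targets 8 fell and 1 rose, with a median of -0.43 (8 and 0 under total-count scaling, 10 and 0 under ribosomal scaling), among them the cell cycle inhibitor gene CDKN1B (5.97-fold), the repressor gene BCL6 (3.96-fold), TXNIP (1.83-fold) and RICTOR (1.298-fold).

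The paralogues of PHLDA1 moved in different directions. PHLDA2 rose from 16.2 ± 2.84 to 24.9 ± 2.35 CPM (log2 fold change 0.62, SE 0.17, edgeR adjusted p = 0.01079, and 0.25 under ribosomal scaling with adjusted p = 0.251), while PHLDA3 fell (log2 fold change -0.46, SE 0.12, adjusted p = 0.006051). PHLDA1 is also part of the set of genes that report ERK pathway output, and of the 9 others 5 fell, with a median of -0.40 (6 under total-count scaling, under ribosomal scaling and with the replicate block, which also called 2 higher). DUSP6 fell 19.2-fold, SPRY2 11.2-fold, DUSP4 3.94-fold and SPRY4 2.36-fold, against 6.45-fold for PHLDA1. The cyclin gene CCND1 was not called (log2 fold change 0.24, adjusted p = 0.3125, -0.13 under ribosomal scaling), and with the replicate block it passed (adjusted p = 2.32e-07).

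Few other secreted Wnt inhibitors passed the filter on low counts. Among 13 others listed, 3 were tested and 1 rose (2 with the replicate block, 0 under total-count scaling or ribosomal scaling), with a median of 0.40. DKK3 went from 17.0 ± 3.72 to 26.0 ± 3.88 CPM (log2 fold change 0.61, SE 0.17, edgeR adjusted p = 0.01127) but missed the threshold under total-count scaling (adjusted p = 0.0526), under ribosomal scaling or without 4 h replicate 2 (adjusted p = 0.252 and 0.0522). DKK2 had 0.17 (adjusted p = 0.5758) and SFRP1 0.40 (adjusted p = 0.4792, and 0.000627 with the replicate block).

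Of 16 tested Wnt receptors 9 fell and 2 rose, with a median of -0.41 (12 and 0 under ribosomal scaling). The frizzled genes FZD8, FZD4 and FZD7 fell 3.69-fold, 2.46-fold and 2.29-fold, and KREMEN1, a receptor for DKK1, had 0.52 (edgeR adjusted p = 0.0007028, and 0.15 under ribosomal scaling). Of 12 intracellular components 6 fell and 2 rose, with a median of -0.26 (7 and 1 under total-count scaling, 9 and 0 under ribosomal scaling), and the scaffold genes APC and AXIN1 and the kinase genes GSK3B and CSNK1A1 fell, with log2 fold changes of -1.01, -1.01, -1.06 and -0.38. Of 6 tested Wnt target and feedback genes 3 fell, with a median of -0.87 (3 lower and 1 higher with the replicate block), among them MYC, 20.1-fold lower, and the feedback ligase gene ZNRF3, 3.71-fold lower.

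**Figure D4:**
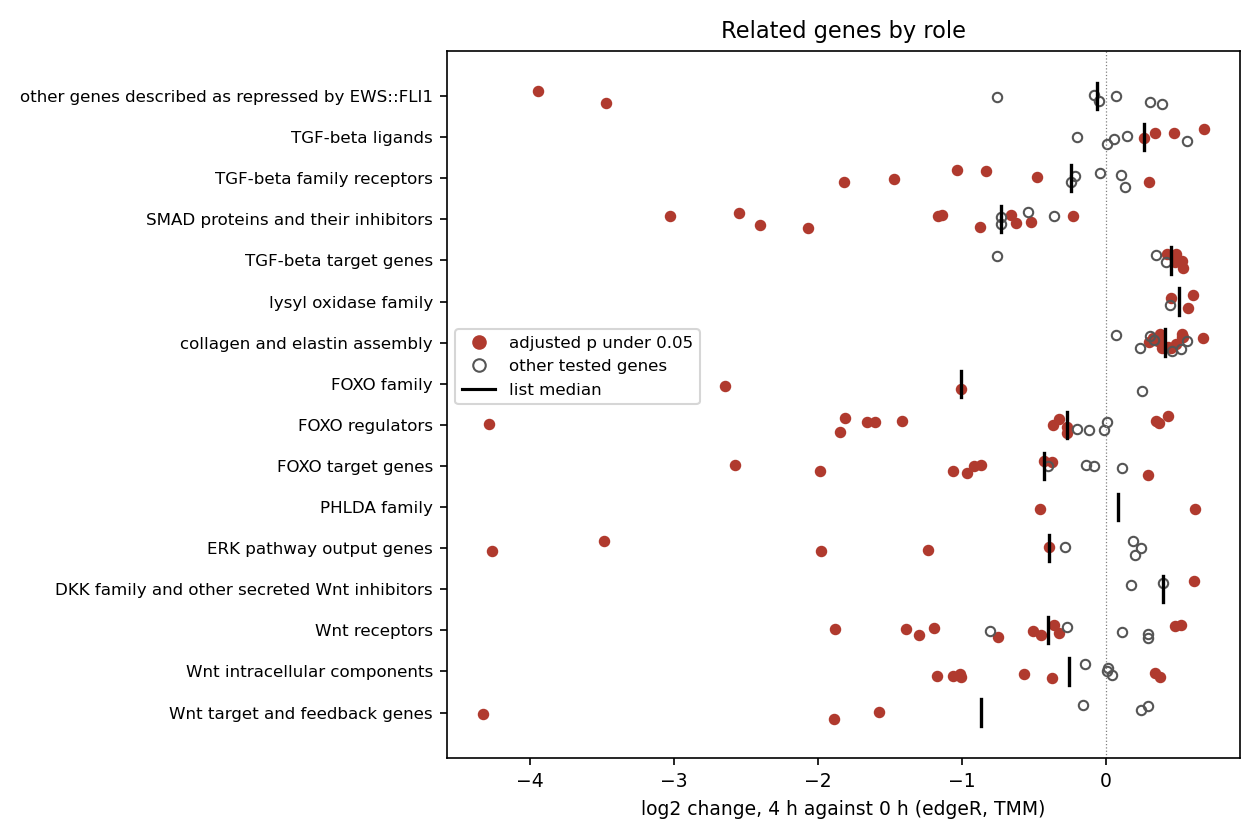
Log2 fold change at 4 h against 0 h (x axis) of the tested genes related to the 5 members, 1 row per list (y axis, with CCND1, CDKN1A, COL1A1, COL3A1, CTGF, FN1 and LGR5 in 2 lists each), filled where the edgeR adjusted p is under 0.05, with a black bar at the list median. Matrix and lysyl oxidase genes cluster right of 0, and SMAD genes and their inhibitors spread left of 0 around a median of -0.73.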

How the data were processed

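PolyA RNA was made into stranded TruSeq libraries, per the labels' protocols. The authors deposited 1 table of whole-number counts by gene symbol, whose 12 columns match the sample titles. Per the submitters' processing notes, FastQC, STAR and the build hg19 were used (no version is stated). How reads were assigned to genes, with which annotation and strand option, is not given in the sources used here, so reads of overlapping genes could be shared. Of 26334 genes, 7175 had no count.

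Counts were analysed in R 4.3.3 with edgeR 4.0.16: filterByExpr by time group (12775 genes kept), TMM scaling, and quasi-likelihood tests on time groups, and on time in hours for the slope, over all 12 libraries. Benjamini-Hochberg adjustment covered every tested gene, and 0.05 was the threshold. Each SE was taken as the size of the log2 estimate divided by the root of its F statistic. For DKK1 at 4 h this gave an interval narrower than that of counting error alone. Nearest genes used log2 CPM with a prior count of 2. The ratio of 2 members used a pseudocount of 0.5. DESeq2 1.42.0 was an alternative. The scripts were tested on simulated data.

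Members, lists and tests were chosen with earlier results of these data known. Named list genes are up to 4 per list with the smallest p at 4 h and at least 5 CPM, and 3 nearest genes per member; list genes called under an alternative only are given as such.

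Replicate numbers paired the libraries: deviations from group means correlated at 0.263 to 0.649 within a number and at -0.501 to 0.16 between numbers at different times. No pair of replicates agreed within sampling noise (chi-square per degree of freedom from 4.13 to 15.2). A marker gene of the original list is not reported here.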

Additional observations from a re-analysis of the deposited data

How the results depend on the processing

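The falls of FOXO1, PHLDA1 and DKK1 at 4 h passed the threshold under all 19 alternatives run, with log2 changes of -3.15 to -2.44, -3.06 to -2.61 and -3.13 to -2.50. For DKK1 every alternative rests on the 4 h counts of 1, 1 and 2 or some of them, so passing adds little. LOX passed under 18 of 19 (0.04 to 0.45). The exception was ribosomal scaling, with 0.042 at 4 h and a slope of 0.010, which left 0 members higher at 4 h and by slope. With total-count scaling TGFBR2 was -0.072 at 4 h with a slope of -0.015, and with ribosomal scaling -0.294 with a slope of -0.074. The replicate block changed no other call of a member than those given above. For the ratios of 2 members, with time labels permuted within replicates, 0 of the 3 pairs of lost mRNAs were called, and 7 of 10 pairs in all.

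Ribosomal scaling also turned TGFBR2 to -0.058 at 2 h and to -0.025 between 1 h and 2 h, LOX to -0.076 between 2 h and 4 h, and at 4 h COL3A1 to -0.066, GDF11 to -0.107, LTBP2 to -0.036, ENG to -0.078, DKK2 to -0.195, CCND1 to -0.132 and EWSR1 to -0.048. Leaving out 1 library at a time changed the sign of some small values, which ran from -0.015 to 0.107 for LOX at 1 h, -0.064 to 0.004 for TGFBR2 at 1 h, -0.202 to 0.017 for DKK1 at 1 h, -0.036 to 0.028 for TGFBR2 between 2 h and 4 h, -0.218 to 0.132 for the change of rate of PHLDA1, and at 4 h -0.053 to 0.363 for DKK2 and -0.021 to 0.766 for SFRP1. Without replicate 3, an alternative chosen after seeing the data, TGFBR2 at 1 h was 0.028 and the change of rate of PHLDA1 0.122. The slope of FOXO1 minus PHLDA1 was 0.084 with a pseudocount of 5, -0.064 to 0.044 with 1 library left out, and 0.074 without replicate 3. That of FOXO1 minus DKK1 was -0.180 to 0.011 with 1 library left out and 0.069 without replicate 3. With the pseudocount of 5, which shrinks changes of a gene with so few counts, FOXO1 minus DKK1 (-0.324) and PHLDA1 minus DKK1 (-0.407) passed.

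Over all tested genes at 4 h, 3148 were lower and 2975 higher. These became 3961 lower and 1346 higher under total-count scaling, and 5854 lower and 153 higher under ribosomal scaling. Depth limits DKK1 at every time and FOXO1 at 4 h.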
